A study of Mus musculus with 10 samples.

Results

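This comparison asked how the effect of lactacystin on gene expression at 48 h differed from its effect at 24 h in mouse primary cortical neurons. It is the interaction of agent and time, the lactacystin effect at 48 h minus that at 24 h, and it used all 10 arrays of the study. The neurons came from the cortex of Swiss albino foetuses at gestation day 15 to 16 and were treated on day 5 in vitro. The groups were lactacystin at 1 µM for 24 h (3 arrays), lactacystin at 1 µM for 48 h (3 arrays), control at 24 h (2 arrays) and control at 48 h (2 arrays). Lactacystin was kept as a stock in DMSO and diluted in serum-free NB medium, and whether control wells got DMSO is not recorded. Separate cultures are not stated either, so the p-values reflect only how far these arrays scattered, possibly for technical reasons. Of 9977 probe sets present on both array designs, 6984 passed a filter on low signal, and they stood for 5541 named genes.

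Lactacystin is a bacterial product that binds the catalytic subunits of the proteasome, the protease complex that degrades proteins tagged with ubiquitin. Cells with a blocked proteasome are known to make more proteasome subunits, a response driven by the transcription factor NRF1, and more chaperones, which hold misfolded proteins in solution and are induced by heat shock factors. Cultures of embryonic cortex hold mostly neurons, with some glia and progenitor cells that can divide. In such bulk samples fewer cells of a type and less RNA per cell cannot be told apart.

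Signals below are scaled intensities, given in the order of the replicates. Control replicate 1, lactacystin 24 h replicate 1 and lactacystin 48 h replicate 3 were on the U74A design, and the others were on its revision U74Av2. Design was a term of the fit, and principal component 1 (45.9% of the variance) separated the designs. The next components, with 21.2% and 12.2%, followed treatment and time under lactacystin. Effects are log2 differences of signal plus a pseudocount of 32 with the standard error (SE) of the limma fit, and a scale of this kind understates the change of dim genes. "Called" means an adjusted p from limma under 0.05.

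The effect of lactacystin differed between the times for a small share of genes. The interaction was called for 86 of 6984 probe sets (1.23%), 57 lower and 29 higher at 48 h than at 24 h, and 1132 had an unadjusted p under 0.05. When each array was scaled to its median, which moved the median interaction of all probe sets from 0.068 to -0.101, 166 were called and 12% of them were higher, against 33.7% in the setting used here. By gene, 19 were higher (0.343% of 5541) and 50 were lower (0.902%). The median SE of an interaction was 0.232 and the smallest called interaction was 0.613. Without single arrays the count ran from 5 (without control 48 h replicate 1) to 186 (without lactacystin 24 h replicate 1). It was 16 without control 24 h replicate 2, 28 without control 24 h replicate 1, 31 without control 48 h replicate 2, and 39 and 36 without lactacystin 24 h replicates 2 and 3. Aqp4, Gfap, Psmb2 and Psmc2 kept their call without each single array, and none of the 69 genes changed sign under the 22 or 23 alternatives fitted for each.

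The 69 genes fell into 4 patterns. Of these genes 49 were transient, called at 24 h and not at 48 h, and 44 of the 49 were rises at 24 h. Another 7 were delayed, called at 48 h and not at 24 h, and all of the 7 were rises. In 9 genes the effect reversed, with a fall followed by a rise in 7 and a rise followed by a fall in 2. In the remaining 4 genes a rise shrank but was still called at 48 h. A much larger set of 253 genes was called at both times with the same sign and no called interaction, 153 higher and 100 lower. For 210 of them the 95% interval of the interaction lay within 1 log2 on either side of 0. The same held for 3356 of 4357 genes with no call at either time or for the interaction. Median effects of the 253 at 24 h were 0.90 for the rises and -0.72 for the falls. These are smaller than 1 log2, so the bound does not show that the effects stayed equal. A further 535 genes were called at 24 h only and 327 at 48 h only with no called interaction, and for these no difference between the times was shown.

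**Figure D1:**
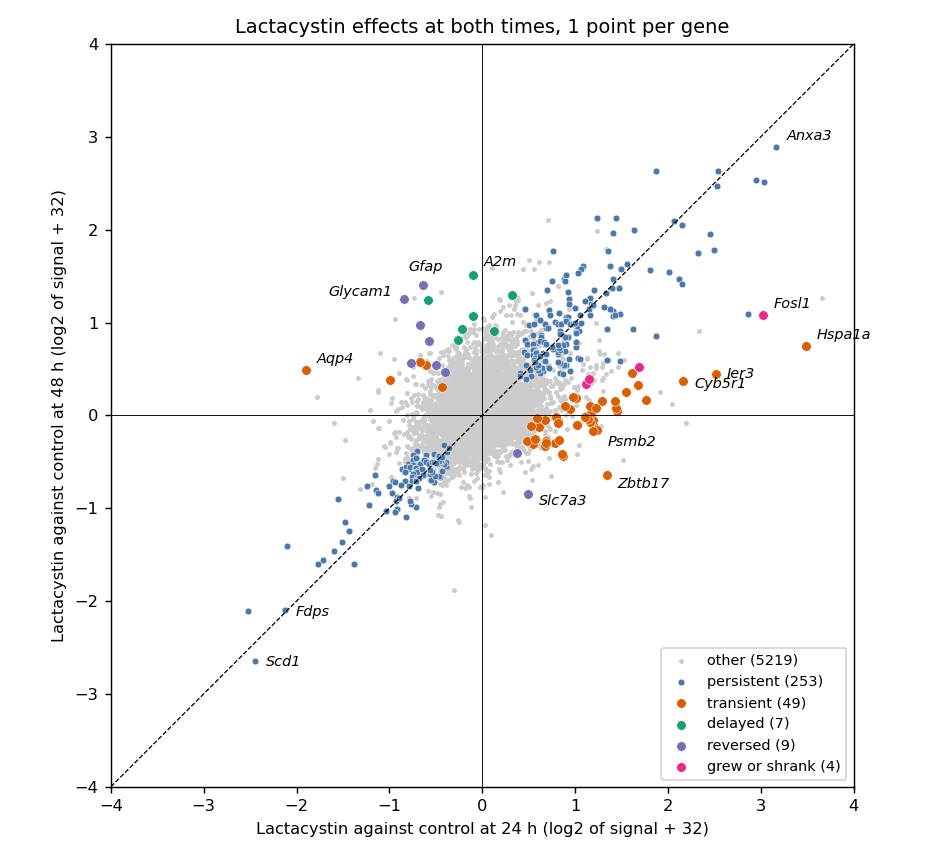
Effect of lactacystin against control at 24 h (x axis) and at 48 h (y axis), both as log2 of signal plus 32, with 1 point for each of 5541 genes coloured by pattern. Transient genes lie along the horizontal line, Gfap and Glycam1 lie in the upper left quadrant, and persistent genes such as Anxa3, Scd1 and Fdps lie near the dashed line of equal effects.

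The transient rises were led by the chaperone gene Hspa1a, which encodes the inducible cytosolic HSP70. Its signal was 227 and 424 in the controls at 24 h, 1652, 7186 and 7057 with lactacystin at 24 h, 305 and 399 in the controls at 48 h, and 773, 1107 and 396 with lactacystin at 48 h. All lactacystin arrays at 24 h lay above every other array, while at 48 h the ranges of lactacystin and control overlapped over both designs. Within each design, every lactacystin array at 48 h still lay above its control. The effect was 3.49 at 24 h (adjusted p = 4.7e-05) and 0.74 at 48 h (adjusted p = 0.15), and the interaction was -2.74 ± 0.42 (adjusted p = 0.012).

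Chaperones of the cytosolic heat shock response showed the pattern of Hspa1a in part. Of 21 measured genes of the cytosolic heat shock list, 10 rose at 24 h (8.66% of all genes were higher then) and 2 at 48 h (7.13% of all genes). Interactions were called for 5, all lower at 48 h, and the list's median interaction was -0.45 against 0.058 over all named genes. Hsph1, a nucleotide exchange factor for HSP70, had an interaction of -1.36 ± 0.28 (adjusted p = 0.043). For Dnajb2, a neuronal HSP40 co-chaperone, it was -1.09 ± 0.20 (adjusted p = 0.024). Hsp90aa1, a stress-inducible HSP90, and Hspe1, the HSP10 of mitochondria, were the other members called, at -0.64 and -0.78. Hspe1 remained higher at 48 h, with 2791 and 3034 in the controls and 3657, 4166 and 3404 with lactacystin. Its rise was thus smaller at 48 h than at 24 h, when lactacystin gave 6423, 6413 and 6514 against 2915 and 2943. Serpinh1, a collagen chaperone of the endoplasmic reticulum (ER), was the other member called at both times, with effects of 2.49 and 1.78 and no called interaction (-0.71). In contrast to Serpinh1, 2 other chaperones outside the cytosol had an interaction called. Hspa5, the HSP70 of the ER, rose by 0.82 at 24 h and stood at -0.06 at 48 h, and Hspa9, the HSP70 of mitochondria, rose by 0.98 and stood at 0.20.

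Proteasome subunits made up 16 of the 44 transient rises. All 14 measured subunits of the 20S core, the proteolytic barrel, were called higher at 24 h (8.66% of all genes). None was called at 48 h. Of the 19S regulator, the cap that recognises and unfolds ubiquitinated proteins, 16 subunits were measured. Of these 16, 12 were called higher at 24 h (8.66% of all genes) and none at 48 h. Interactions were called for 7 core and 9 regulator subunits, each lower at 48 h (0.902% of all genes). Median effects went from 0.89 to 0.10 in the core and from 0.79 to -0.02 in the regulator. Against the control array of the same time and design, the core's median was 1.04, 0.88 and 0.93 at 24 h and 0.06, 0.17 and 0.01 at 48 h. The arrays of the 2 times did not overlap.

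Psmb2, a non-catalytic beta subunit of the core, gave 1735 and 2552 in the controls at 24 h and 4179, 6276 and 6057 with lactacystin. At 48 h it gave 1937 and 3191 in the controls and 3039, 2982 and 1568 with lactacystin. The groups were apart at 24 h and overlapped at 48 h, when lactacystin lay below its control within each design. The interaction was -1.39 ± 0.15 (adjusted p = 0.0021). Psmc2, an ATPase of the regulator's base, gave 2204 and 2261, then 4618, 5622 and 5544, at 24 h, and 2279 and 2551, then 2415, 2422 and 2062, at 48 h. Its interaction was -1.29 ± 0.13 (adjusted p = 0.0019). The other core subunits with a called interaction were Psmb3 (-1.30), Psmb6 (-1.17), Psma1 (-1.15), Psma7 (-1.13), Psma5 (-1.06) and Psmb7 (-0.79). Those of the regulator were Psmd4 (-1.41), a ubiquitin receptor, Psmd12 (-1.24), Psmc3 (-1.13), Psmd14 (-1.12), the deubiquitinase of the lid, Psmd7 (-1.08), Psmd11 (-0.81), Psmd1 (-0.73) and Psmc6 (-0.61). All 3 probe sets of Psmc3 were called, at -1.13, -1.03 and -1.44. The probe sets used for Psmd12, Psmc3 and Psmb7 are of the _f_at type, which can bind related transcripts. Psmd10, an assembly chaperone kept with the regulator list, was the exception in sign, at -0.26 at 24 h and 0.61 at 48 h, with no call. In the immunoproteasome list no interaction was called among 4 measured genes. Tap1, a peptide transporter, came nearest there, at -0.30 ± 0.26.

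**Figure D2:**
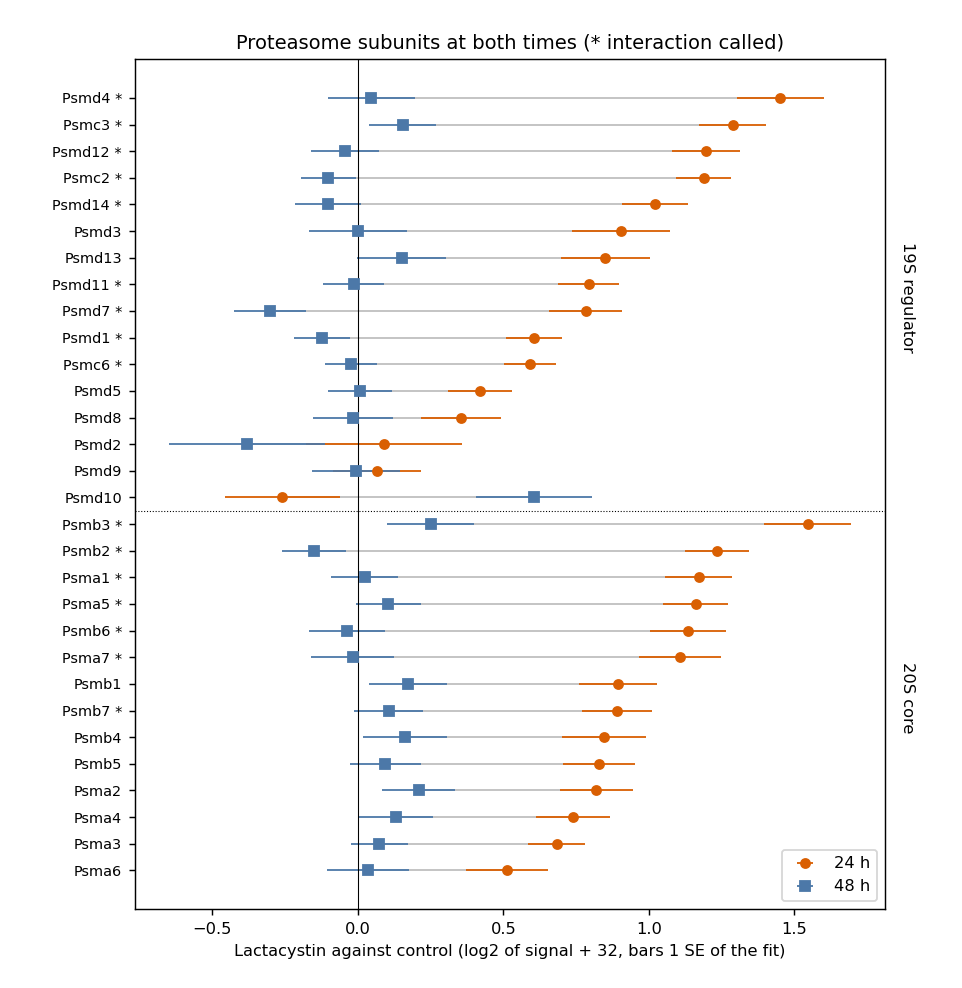
Lactacystin effect (log2 of signal plus 32) on each measured subunit of the 20S core (14) and 19S regulator (16), at 24 h (circles) and 48 h (squares), with bars of 1 SE and an asterisk for a called interaction. The 24 h points lie to the right of the 48 h points for every subunit except Psmd10, and most 48 h points lie near 0.

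Promoters of the transient rises were searched for motifs of the factors known to drive chaperone and proteasome genes, in the 250 bases before each start in a RefSeq promoter table (GRCm38.p6), on both strands. Of the 44 genes, 34 matched the table, with 39 promoters. The heat shock element, searched as GAANNTTC, was in 5 of these promoters (12.8%) and in 6.7% of all promoters of the table. It was in 30.8% of the 26 promoters of the heat shock list. The antioxidant response element, searched as TGACNNNGC, was in 9 of the 39 (23.1%), which belong to 7 genes, and in 10.2% of all promoters. It was in 2 of 12 core and 3 of 14 regulator promoters. This motif can overlap the AP-1 site TGANTCA, which was in 5.1% of the 39 and 6.7% of all. A match is a description of the letters and not a measured site. The following 4 promoters are shown as examples, a pair for each motif chosen after the search from the chaperone and proteasome genes with a called interaction, with the heat shock element (Hspa1a and Hspe1) or the antioxidant response element (Psmb6 and Psmd12) in capitals, on either strand, 5′ to 3′ along the gene.
Hspa1a, chr17:34972157-34972406, minus strand: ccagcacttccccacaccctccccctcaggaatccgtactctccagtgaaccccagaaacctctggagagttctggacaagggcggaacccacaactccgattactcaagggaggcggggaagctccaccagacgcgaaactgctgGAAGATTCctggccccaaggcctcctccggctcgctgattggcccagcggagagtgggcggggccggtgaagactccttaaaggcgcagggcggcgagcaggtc
Hspe1, chr1:55087898-55088147, plus strand: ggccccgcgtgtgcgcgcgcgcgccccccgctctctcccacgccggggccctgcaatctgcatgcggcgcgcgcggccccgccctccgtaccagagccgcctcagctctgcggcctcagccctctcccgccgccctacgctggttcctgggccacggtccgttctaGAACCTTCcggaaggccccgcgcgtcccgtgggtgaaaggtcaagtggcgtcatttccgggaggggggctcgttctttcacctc
Psmb6, chr11:70525107-70525356, plus strand: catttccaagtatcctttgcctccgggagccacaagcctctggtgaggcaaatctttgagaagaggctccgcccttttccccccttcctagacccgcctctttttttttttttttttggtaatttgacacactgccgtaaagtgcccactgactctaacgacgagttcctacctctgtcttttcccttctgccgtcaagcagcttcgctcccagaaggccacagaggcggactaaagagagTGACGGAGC
Psmd12, chr11:107479278-107479527, plus strand: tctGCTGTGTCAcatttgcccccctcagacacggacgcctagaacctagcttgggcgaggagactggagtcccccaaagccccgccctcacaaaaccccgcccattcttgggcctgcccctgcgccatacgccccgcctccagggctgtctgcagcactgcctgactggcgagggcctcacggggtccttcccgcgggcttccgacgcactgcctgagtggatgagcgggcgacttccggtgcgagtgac
The heat shock element began 104 bases before the start of Hspa1a and 84 before that of Hspe1. The antioxidant response element began 9 bases before the start of Psmb6 and 247 before that of Psmd12.

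Most genes of the ubiquitin system had no called interaction, which does not show that there was none. It was called for 3 of 26, each lower at 48 h (0.902% of all genes), and all 3 were transient rises. Sqstm1, a receptor that delivers ubiquitinated cargo to autophagy, gave 1446 and 1726 in controls and 4828, 5600 and 5827 with lactacystin at 24 h. At 48 h it gave 1522 and 2088, then 2318, 3406 and 1666. The ranges overlapped over both designs, but within each design lactacystin lay above its control on every array. The interaction of Sqstm1 was -1.35 ± 0.23 (adjusted p = 0.017). Ufd1 and Vcp, partners in pulling ubiquitinated proteins from membranes and complexes, were at -1.28 and -0.88. In the list of autophagy and lysosome genes, Sqstm1 and Atp6v1h, a subunit of the lysosomal proton pump (-0.96), were called among 35. Members called higher were 11 at 48 h (7.13% of all genes) and 10 at 24 h (8.66%).

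Among AP-1 and immediate early genes, Ier3 and Fosl1 had an interaction called. Ier3, an early response gene, gave 138 and 82.4 in the controls, 786, 717 and 718 with lactacystin at 24 h, 157 and 101 in the controls at 48 h, and 108, 269 and 182 with lactacystin at 48 h. Over both designs its groups were apart at 24 h only, but within each design lactacystin lay above its control at 48 h too. The interaction of Ier3 was -2.07 ± 0.37 (adjusted p = 0.023). Fosl1, which encodes the AP-1 subunit FRA1, was 13.8 and 13.3 in the controls at 24 h and at 356, 316 and 322 with lactacystin. At 48 h it was 14.6 and 10.6 in the controls and 33, 76.6 and 77.9 with lactacystin, which was apart but far smaller. Its interaction was -1.95 ± 0.33 (adjusted p = 0.018). The mean signal of Fosl1 passed the low-signal filter only through lactacystin at 24 h, so this call is not independent of that filter. In the list of AP-1 and immediate early genes these were the 2 interactions called among 24. Members called higher were 11 at 24 h (8.66% of all genes) and 4 at 48 h (7.13%).

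Targets of ATF4, the factor of the integrated stress response, divided by direction. Of 19 measured genes, 6 were higher and none lower at 24 h, while 1 was higher and 4 were lower at 48 h (3.7% of all genes were lower then). Interactions were called for Slc7a3 (-1.34), Cebpb (-1.16) and Ddit3 (-1.14), all lower at 48 h. Ddit3, which encodes CHOP, gave 248 and 352, then 576, 798 and 960, at 24 h, and 259 and 259, then 299, 316 and 250, at 48 h. Slc7a3, a transporter of cationic amino acids, reversed. It gave 468 and 886 in controls and 749, 1127 and 1210 with lactacystin at 24 h, and 273 and 504, then 279, 228 and 149, at 48 h. The controls themselves differed by -0.74 between the times for this gene, with no call. Compared over raw signals the groups overlapped at both times, and within each design lactacystin lay above its control at 24 h on every array. Atf4 itself was not called at 24 h (-0.12) and fell at 48 h (-0.99), with no called interaction (-0.87). Cytosolic tRNA synthetases, which charge tRNAs and include known ATF4 targets, had interactions below 0 in 16 of 18 genes. Over all named genes 2373 of 5541 were below 0. Of the synthetases only Rars was called, at -1.24 ± 0.19, and the median was -0.54. Their counts were 3 higher at 24 h (8.66% of all genes) and 3 lower at 48 h (3.7%).

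Gfap, the intermediate filament of astrocytes, had the reversed effect with the smallest adjusted p. Its signal was 291 and 320 in the controls at 24 h and 162, 188 and 208 with lactacystin. At 48 h it was 334 and 264 in the controls and 863, 795 and 864 with lactacystin. The lactacystin arrays lay below the controls at 24 h and above them at 48 h with no overlap. The effects were -0.64 (adjusted p = 0.015) and 1.40 (adjusted p = 0.00033), and the interaction was 2.04 ± 0.21 (adjusted p = 0.0019). A second probe set of Gfap gave 1.86 (adjusted p = 0.04), with the fall called and the rise not.

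Aqp4, the water channel of astrocyte endfeet, had the highest called interaction, 2.38 ± 0.25 (adjusted p = 0.0019). Lactacystin at 24 h gave 84.4, 41.5 and 23.4 against 371 and 216 in the controls, an effect of -1.89. At 48 h it gave 262, 320 and 548 against 330 and 225, and the groups overlapped over both designs. Within each design lactacystin lay above its control on every array. The effect at 48 h was 0.49 and not called (adjusted p = 0.11), so Aqp4 counts as a transient fall and no rise was shown. A second probe set of Aqp4 was also called, at 1.72. Apoe, the lipid carrier secreted by astrocytes, showed the same order of values, -0.95 at 24 h (called) and 0.61 at 48 h, but its interaction of 1.55 was not called.

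Of 10 measured markers of astrocytes and radial glia, 3 were lower at 24 h (6.68% of all genes) and 4 were higher at 48 h (7.13%). An interaction was called for 2, both higher at 48 h (0.343% of all genes). Interactions were above 0 for 9 of the 10, and for 3168 of 5541 named genes, with a median of 0.79. The median against the control of the same time and design was -0.41, -0.23 and -0.56 at 24 h and 0.50, 0.99 and 0.46 at 48 h. Gja1 and Clu, a gap junction protein and a secreted chaperone, went against this order and were higher at both times (1.04 and 0.90, 0.78 and 1.00). The summed signal of the 12 markers on both designs ran from 17680 to 26185 in controls and from 14850 to 23227 with lactacystin at 24 h, and from 20156 to 28428 and 26270 to 32971 at 48 h. Most of this sum came from Fabp7 and Apoe, with mean signals of 11695 and 7065, so it says little about Gfap or Aqp4. Its ranges pool both designs. No marker had a mean signal of 0, and the dimmest were Gjb6 and S100b, with mean signals of 10.5 and 36.5, which the filter left out.

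Other genes with a fall followed by a rise include Plpp3, a lipid phosphate phosphatase. It gave 1678 and 1098, then 1038, 639 and 811, at 24 h, and 1427 and 1358, then 2408, 2919 and 2732, at 48 h. The groups were apart in opposite directions, and the interaction was 1.65 ± 0.23 (adjusted p = 0.0081). The others were Glycam1 (2.09 ± 0.31), Fxyd1, a regulator of the sodium pump (1.37 ± 0.24), Pxmp2, a peroxisomal membrane protein (1.32 ± 0.19), Pygb, the brain glycogen phosphorylase (1.05) and Mfge8, a secreted bridge for engulfing dying cells (0.88). Glycam1 was dim, with controls at 105 and 32.3 and at 81.5 and 42.6, and lactacystin arrays at 37.0, 4.75 and 11.7 at 24 h and at 127, 163 and 229 at 48 h. Its mean signal passed the low-signal filter only through lactacystin at 48 h, so its call is not independent of that filter. Snx10, a sorting nexin, was the gene that reversed the other way beside Slc7a3, with effects of 0.38 and -0.40 and an interaction of -0.78 ± 0.14.

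Transient falls were few. Beside Aqp4 they were Dbi, which encodes the acyl-CoA binding protein (1.38), Acy3, an aminoacylase (1.25), Agap2, an Arf regulator of neurons (1.15), and Id4, an inhibitor of bHLH factors in neural precursors (0.74). Dbi gave 5119 and 5154 in controls against 3095, 2301 and 2275 at 24 h, and 6547 and 6366 against 8355, 8712 and 7933 at 48 h. The arrays were apart in both comparisons, but at 48 h the difference was not called (0.38, adjusted p = 0.07). Effects at 48 h were likewise above 0 and not called for Acy3 (0.58), Agap2 (0.54) and Id4 (0.31). The arrays of Agap2 and Id4 were apart from the controls at 48 h, and those of Acy3 overlapped.

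**Figure D3:**
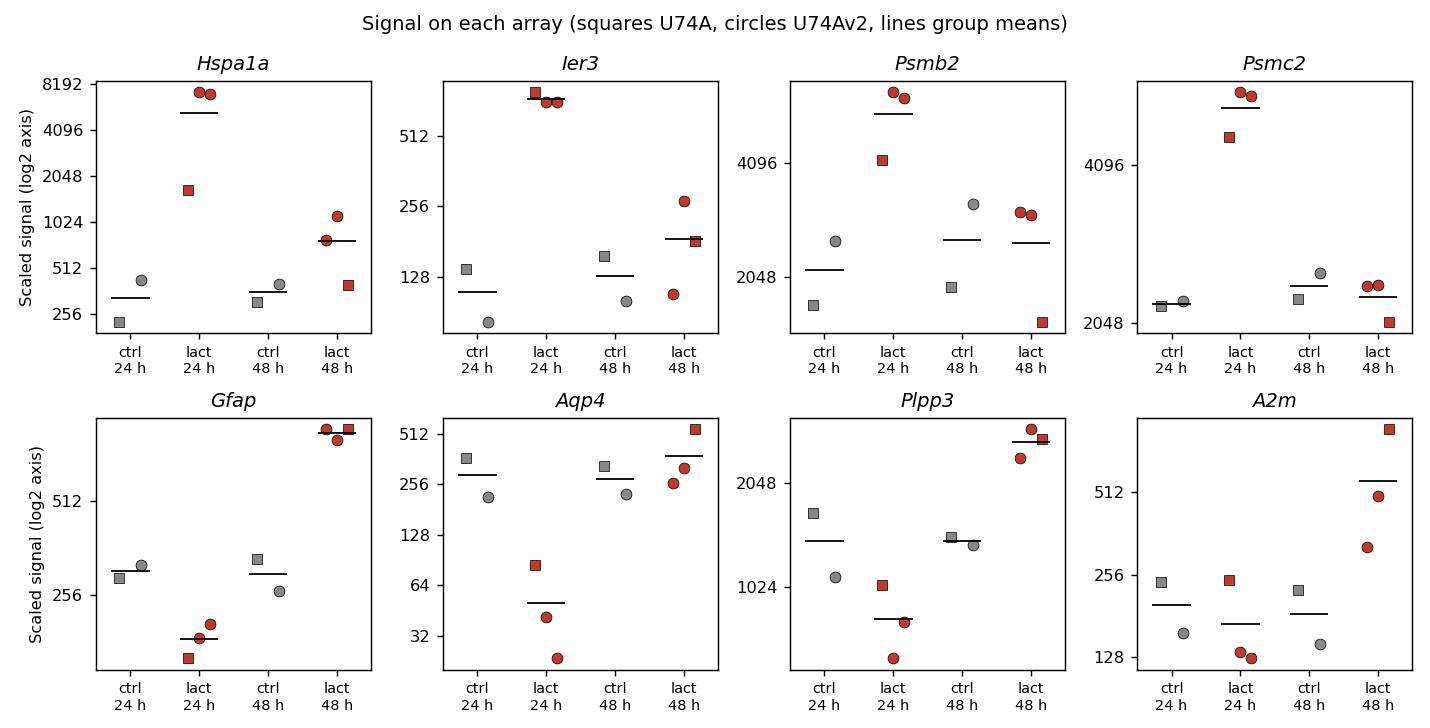
Scaled signal on a log2 axis on each of the 10 arrays for 8 genes, in the order control 24 h, lactacystin 24 h, control 48 h and lactacystin 48 h; squares are U74A arrays, circles U74Av2 arrays and lines group means. In the upper row the lactacystin arrays stand highest at 24 h, and in the lower row those of Gfap, Plpp3 and A2m stand highest at 48 h while Aqp4 is low at 24 h.

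Delayed rises were called for 7 genes. A2m, a protease inhibitor of blood and injured tissue, gave 241 and 156 in controls and 245, 133 and 126 with lactacystin at 24 h. At 48 h it gave 226 and 142, then 322, 496 and 872. Lactacystin was apart from control at 48 h only, and the interaction was 1.61 ± 0.27 (adjusted p = 0.016). Pla2g7, the secreted phospholipase that inactivates platelet-activating factor, had 1.82 ± 0.29. Its difference at 24 h was negative and not called (-0.58), and at 48 h it was 1.25. Smoc1, a matricellular protein (1.17), Nfia, a factor of gliogenesis (1.15), Oat, ornithine aminotransferase (1.07), Zfp36l1, which destabilises mRNAs (0.97), and Mcm4 (0.78) completed the set. A second, dim probe set of Nfia was not called, at 0.54.

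Mcm4 is a subunit of the helicase that opens DNA for replication. Its signal was 455 and 538, then 477, 617 and 609, at 24 h, and 311 and 378, then 798, 727 and 588, at 48 h. Of its interaction of 0.78 ± 0.16 (adjusted p = 0.044), 0.29 was the difference in time under lactacystin and -0.49 a difference between the controls that was not called. Among 58 cell cycle and replication genes it was the only interaction called. Of these 58, 2 were called higher at 24 h (8.66% of all genes) and 23 at 48 h (7.13%), and none was lower at either time. Interactions were above 0 for 50 of them (3168 of 5541 over all named genes), with a median of 0.47. The largest were those of Ect2 and Top2a, which act in cytokinesis and in untangling DNA, at 1.07 each, and of Mki67, a marker of proliferation, at 1.03. These had effects of 1.25, 0.99 and 0.89 at 48 h, all called, and 0.18, -0.08 and -0.14 at 24 h. A difference between the times was thus not shown for single members other than Mcm4. The control course of this list had a median of -0.25 and the lactacystin course one of 0.25.

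No marker of neural progenitors, microglia or fibroblast-like cells had a called interaction. Interactions, which were above 0 for 3168 of 5541 named genes, were above 0 for all 8 measured neural progenitor markers, all 10 microglia and macrophage markers and all 13 fibroblast, mural and meningeal markers, with medians of 0.47, 0.51 and 0.53. Of these lists 4, 3 and 4 genes were called higher at 48 h (7.13% of all genes), against 1 each at 24 h (8.66%). Prom1, a stem cell surface protein, was nearest to a call at 0.83 ± 0.20 (adjusted p = 0.069), and a dimmer probe set of it was called at 1.07. The summed progenitor signal ran from 6288 to 7569 in controls and 7065 to 9885 with lactacystin at 24 h, and from 5882 to 6268 and 9793 to 10358 at 48 h. Sox2, with a mean signal of 4213, was the largest part of it. The summed fibroblast, mural and meningeal signal ran from 3219 to 3604 and 3473 to 4673 at 24 h, and from 3210 to 3272 and 4590 to 6880 at 48 h. The summed microglia and macrophage signal ran from 1192 to 1563 and 1233 to 2138 at 24 h, and from 959 to 1788 and 1551 to 2739 at 48 h. What part such cells had in the delayed and reversed genes was not tested. The 17 neuron markers had a median interaction of 0.11, and none was called for the interaction. Of these markers, 5 were lower at 24 h (6.68% of all genes) and 2 at 48 h (3.7%). Their summed signal was lower with lactacystin at both times, at 19361 to 21874 against 25753 to 31715 at 24 h and at 20086 to 26650 against 26908 to 29175 at 48 h.

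**Figure D4:**
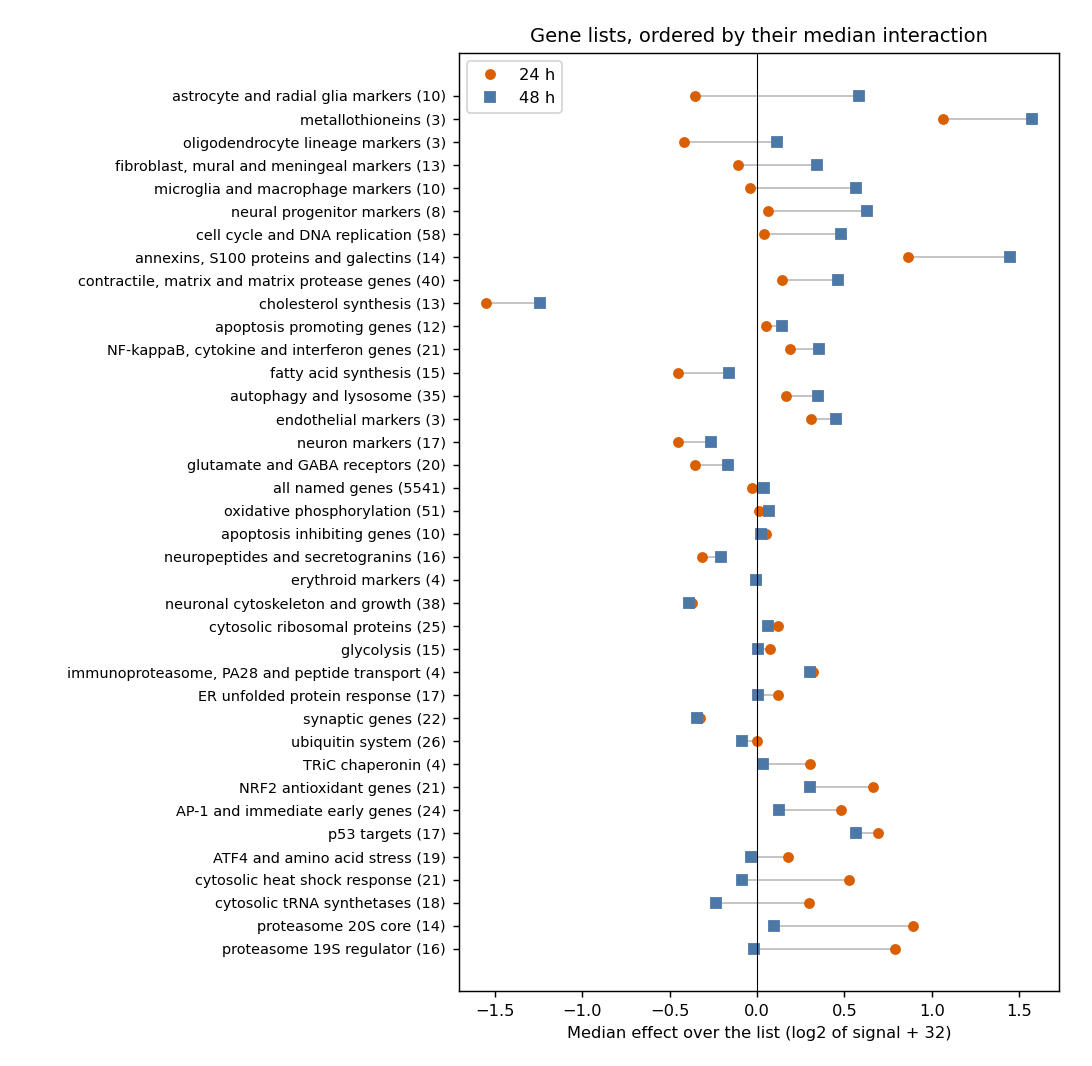
Median lactacystin effect (log2 of signal plus 32) at 24 h (circles) and 48 h (squares) over the measured genes of each list, with their number in brackets, ordered from the lowest median interaction at the bottom to the highest at the top. Proteasome and heat shock lists went from above 0 to near 0, astrocyte and radial glia markers went from below 0 to above it, and cholesterol synthesis and neuronal cytoskeleton lists lay below 0 at both times.

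Persistent effects covered other pathways. Cholesterol synthesis genes were lower at both times, 12 of 13 at 24 h (6.68% of all genes) and 10 at 48 h (3.7%). No interaction was called among them, and their median interaction was 0.19. Fdps, the farnesyl diphosphate synthase of this pathway, gave 6791 and 11888 against 1696, 2402 and 2448 at 24 h, and 8196 and 11513 against 2375, 2636 and 2146 at 48 h. The groups were far apart at both times, with effects of -2.13 and -2.10 and an interaction of 0.03 ± 0.17. Idi1 (-2.52 and -2.10), Fdft1 (-1.71 and -1.55) and Dhcr7 (-1.77 and -1.60), enzymes of the same pathway, and Scd1, a fatty acid desaturase (-2.45 and -2.64), completed the 5 largest persistent falls. Hmgcs1, an early enzyme of the pathway, had the smallest interaction p of the list, with -1.55 at 24 h, -0.90 at 48 h and 0.65 ± 0.18 between them (adjusted p = 0.11).

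The largest persistent rises were Anxa3, an annexin (3.17 and 2.89), Ptgr1, a prostaglandin reductase (2.94 and 2.54), Ephx1, an epoxide hydrolase (2.54 and 2.63), Ccn2, a matricellular growth factor (3.03 and 2.51), and Lgals3, a galectin (2.53 and 2.47). Several of these rested on wide errors. Anxa3 gave 1848, 535 and 534 with lactacystin at 24 h and 496, 699 and 619 at 48 h, against 85.6 and 56.9 and 81.2 and 43.8 in the controls, and its high value was the U74A array. Its interaction was -1.47 within U74A and 0.36 within U74Av2. For Lgals3 these values were -1.39 and 0.56.

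NRF2 antioxidant genes were of both kinds. Of 21, 12 were higher at 24 h (8.66% of all genes) and 7 at 48 h (7.13%). No interaction was called, and the interactions ran from -2.39 to 0.86 with a median of -0.20. Nqo1 (1.37 and 1.61), Gsta4 (2.06 and 2.09) and Nfe2l2 (1.49 and 1.58) were called at both times. Me1, malic enzyme (1.01 and 0.11), and Txnrd1, thioredoxin reductase (0.98 and 0.30), were called at 24 h alone. Metallothioneins, which bind zinc, were the list with the highest median effect at 48 h, 1.57, against 1.06 at 24 h. Mt1 and Mt2 were called at both times, and Mt3 at 48 h alone (0.14 and 0.98, interaction 0.84 ± 0.19, adjusted p = 0.058). Within U74A and U74Av2 the median interaction of these 3 genes was -0.24 and 1.17. Of 17 p53 targets, 11 were higher at 24 h (8.66% of all genes) and 7 at 48 h (7.13%). Their nearest to a call was Mdm2, the ubiquitin ligase of p53, at -0.89 ± 0.20 (adjusted p = 0.053).

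Of the 14 annexins, S100 proteins and galectins, 9 were higher at 24 h (8.66% of all genes) and 10 at 48 h (7.13%). Their median effect was 0.87 and 1.45, and no interaction was called. Anxa5, a phosphatidylserine binding annexin, was just outside, at 0.70 ± 0.16 (adjusted p = 0.054). Of 40 contractile, matrix and matrix protease genes, 12 were higher at 24 h (8.66% of all genes) and 14 at 48 h (7.13%). Tnc, the matrix protein tenascin C, was called at 24 h alone, with effects of 1.30 and 0.16 and an interaction of -1.14 ± 0.27 (adjusted p = 0.071).

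Some neuronal genes were called lower at both times with no called interaction, as were 100 of 5541 named genes in all. They were 6 of 38 in the cytoskeleton and growth list and 4 of 22 synaptic genes. There were also 2 of 20 glutamate and GABA receptors and 2 of 16 neuropeptides and secretogranins. Counted at each time alone, 13 cytoskeleton and growth genes were lower at 24 h (6.68% of all genes) and 12 at 48 h (3.7%). The medians were -0.37 and -0.39. Synaptic genes counted 7 and 6, receptors 4 and 3, and neuropeptides and secretogranins 3 and 3. No interaction was called in these 4 lists. Sst, the peptide of a class of inhibitory neurons, was lower at 48 h alone, with 773, 591 and 1136 against 3189 and 2870 at 48 h. At 24 h it gave 1750, 2975 and 2946 against 2677 and 3505, and the interaction of -1.57 ± 0.38 was not called (adjusted p = 0.071). Apoptosis genes gave 1 call at either time among 12 promoting and 10 inhibiting members. Bid, a promoting member, was the one called, at 24 h (0.64), with an interaction of -0.99 ± 0.22 (adjusted p = 0.054). Oxidative phosphorylation, ribosomal protein, TRiC chaperonin and fatty acid synthesis genes had no called interaction among 51, 25, 4 and 15. Glycolysis had 1, the transient rise of Hk2, a hexokinase, at -1.59 ± 0.25. The unfolded protein response of the ER had 1 among 17, Hspa5. Oligodendrocyte lineage, endothelial and erythroid markers, at 3, 3 and 4 measured genes, and 21 NF-kappaB, cytokine and interferon genes had none. The sign of the median interaction changed with the scaling of the arrays for neuron markers, for all neuronal lists here but the synaptic one, and for autophagy, glycolysis, oxidative phosphorylation, ribosomal protein, fatty acid synthesis, apoptosis inhibiting, NF-kappaB, endothelial and erythroid lists. It did not change for the proteasome, heat shock, tRNA synthetase, cell cycle, progenitor and astrocyte lists.

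Other transient rises belonged to none of the lists. Cyb5r1, a cytochrome b5 reductase, went from 2.17 to 0.37, with an interaction of -1.80 ± 0.25 (adjusted p = 0.0081). The probe set used for Cyb5r1 is of the _f_at type, which can bind related transcripts. Its other probe set rose by only 0.64 at 24 h, and its interaction of -0.58 was not called. Ptprn, a protein of secretory granules, was at -1.35 ± 0.22. Tuba4a, an alpha tubulin (-1.30), Akap12, a kinase anchor (-1.27), Sod1, superoxide dismutase (-0.83), the mitochondrial ribosomal proteins Mrps34 (-0.90) and Mrpl16 (-0.83), Eif3d, a translation initiation factor (-0.73), Tmed9 (-0.85), Surf2 (-1.01) and Zwint (-0.76) were also called, as were Hspa9, Zbtb17 and Cdc16, which are described elsewhere. Those from Tuba4a to Zwint are outside the rule for named genes and are given because their interaction was called. Of the 4 rises that shrank but were still called at 48 h, Lmna and Nmt1 are likewise in no list. Lmna, which encodes the nuclear lamins A and C, went from 1.69 to 0.52. Its other, dimmer probe set was called at neither time (-0.10 and 0.15) and not for the interaction (0.25). Nmt1, a myristoyl transferase, went from 1.15 to 0.39. Its other, dimmer probe set was called at neither time (0.70 and -0.26) and not for the interaction (-0.97).

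The interactions came mainly from the lactacystin arrays. With time under lactacystin 675 of 5541 genes were called (12.2%), while in the controls 0 were called by limma (0%), with 310 at an unadjusted p under 0.05. Of the 86 called interactions, 82 were also called in the lactacystin course, and in 81 that course was larger than the control course. Zbtb17, a zinc finger partner of MYC, was the clearest exception. Its controls gave 40.9 and 200 at 24 h and 109 and 599 at 48 h, a difference of 1.20 that was not called, and lactacystin gave 166, 579 and 544, then 260, 542 and 49.3. In every group the U74A array gave the lowest signal. Cdc16, a subunit of the anaphase-promoting complex, likewise had 0.79 in controls and -0.19 under lactacystin. For Agap2 the control course of -0.74 was larger than the lactacystin course of 0.42.

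**Figure D5:**
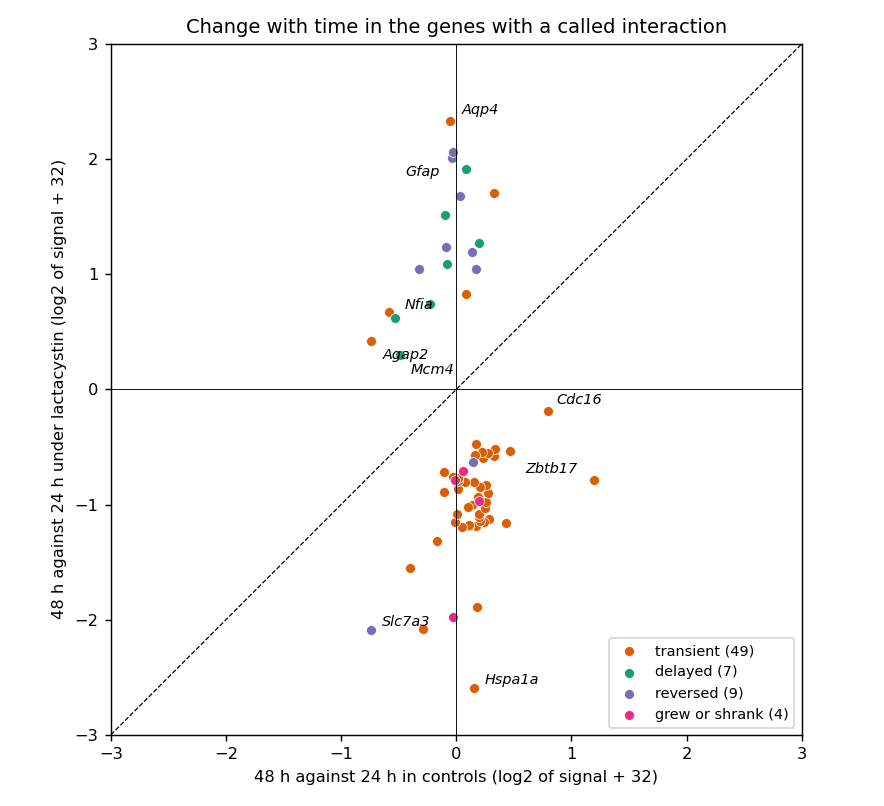
Difference between 48 h and 24 h in controls (x axis) and under lactacystin (y axis), as log2 of signal plus 32, for the 69 genes with a called interaction, coloured by pattern. Most points lie near the vertical line at 0, with Hspa1a lowest and Aqp4 highest, while Zbtb17, Cdc16, Agap2 and Mcm4 lie off it.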

How the data were processed

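RNA of 10 samples was measured on 1 array each, 4 of the U74A and 6 of the U74Av2 design. The deposited values are intensities, 1 linear signal per probe set, made with MAS5 per the submitters' processing notes (which version is not given in the sources used here). Each array was scaled over the 9977 probe sets shared by both designs so that its mean, trimmed by 2%, was 500, and analysed as log2 of signal plus a pseudocount of 32. The 30% of probe sets with the lowest mean signal, up to 54.7, were left out. One fit with limma 3.58.1 in R 4.3.3 (lmFit, eBayes with trend) held the 4 groups and array design, with 5 residual degrees of freedom. Tests were two-sided and adjusted by Benjamini-Hochberg over 6984 probe sets. Culture batch or date cannot be told apart from array design, and the number of arrays limits the precision.

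Symbols came from the platform annotation, updated through RefSeq. A single symbol was found for 8724 shared probe sets, several for 346, which stayed unnamed, and no symbol for 907. The brightest probe set stood for a gene. Genes are named by rule: the 12 largest interactions in each direction with 1 sign in both designs, the 5 largest of each pattern and direction, and up to 3 called members of each of 37 lists, or the one with the smallest p. Others were chosen after their values were seen. Members and lists were chosen with earlier results of these data known. In simulated interactions over 6984 probe sets, the fit recovered 20.9% of changes of 1.5-fold, 50.8% at 2-fold and 97.0% at 4-fold, and 2.61% of the calls were false. The simulated noise was independent and took its size from the same fit. These shares therefore check the fit and do not give the share of false calls in the real data. Alternatives were other pseudocounts, scalings, filters, covariates, variance models and thresholds, and leaving out each array.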

Additional observations from a re-analysis of the deposited data

Results flagged for a closer look

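The effect of lactacystin differed between 24 h and 48 h by the interaction test of limma for 86 probe sets at an adjusted p under 0.05, and groups of 2 or 3 arrays are too small to look for single arrays that stand apart. Among the genes named by rule, the effect was lower at 48 h for Hspa1a (-2.74), Ier3 (-2.07), Zbtb17 (-1.98), Fosl1 (-1.95), Cyb5r1 (-1.80), Hk2 (-1.59), Psmd4 (-1.41), Psmb2 (-1.39), Hsph1 (-1.36), Sqstm1 (-1.35), Ptprn (-1.35), Slc7a3 (-1.34), Psmb3 (-1.30), Psmc2 (-1.29), Ufd1 (-1.28), Psmd12 (-1.24), Rars (-1.24), Psmb6 (-1.17), Lmna (-1.17), Cebpb (-1.16), Ddit3 (-1.14), Dnajb2 (-1.09), Atp6v1h (-0.96), Vcp (-0.88), Hspa5 (-0.88), Snx10 (-0.78), Hspe1 (-0.78) and Nmt1 (-0.76), where the value is the log2 interaction. It was higher at 48 h for Aqp4 (2.38), Glycam1 (2.09), Gfap (2.04), Pla2g7 (1.82), Plpp3 (1.65), A2m (1.61), Dbi (1.38), Fxyd1 (1.37), Pxmp2 (1.32), Acy3 (1.25), Smoc1 (1.17), Agap2 (1.15), Nfia (1.15), Zfp36l1 (0.97), Mcm4 (0.78) and Id4 (0.74).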

How the results depend on the processing

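The count of called interactions (86) and the probe sets that were transient (58), delayed (12), persistent (312), reversed (12) and shrunken (4) were recomputed under 26 alternatives. Each called gene was refitted under 23 (Acy3, Fosl1, Glycam1 and Hk2 under 22) and kept its sign in those. Counts beyond 1.5 times are given in that order of patterns. Without array design as a term 2 interactions were called, with 1, 1, 63, 0 and 0 probe sets in the patterns. On the U74Av2 arrays alone 12 were called, with 5, 3, 157, 3 and 1. At an adjusted p under 0.01 there were 18, with 13, 5, 117, 0 and 0, and under 0.10 there were 205, with 118, 49, 474, 26 and 12. Without the trend 36 were called, with 20 transient, 7 delayed and 1 shrunken. Median scaling gave 166, with 114 transient and 32 delayed. With no filter on low signal 48 were called, with 33 transient and 4 delayed, and with the lowest 50% left out 22 were delayed. The larger pseudocount gave 26 delayed. With a size of at least 1 log2 also asked for, 31 were transient, 72 persistent, 0 reversed and 1 shrunken. The cause of these shifts was not tested.

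Without single arrays interactions ran from 5 to 186, transient from 4 to 97, delayed from 0 to 59, persistent from 104 to 334, reversed from 0 to 12 and shrunken from 0 to 13. Leaving out a control leaves 1 array, which is assumed to vary like the other groups. The labels do not say whether samples with the same replicate number were paired. The arrays could not settle it, because replicate number overlapped with array design. With the replicate block beside array design 60 interactions were called, with 3 reversed and 2 shrunken. With the replicate block in place of array design limma called 0, at 445 with an unadjusted p under 0.05, and the patterns held 0, 0, 52, 0 and 0. Of the list medians 106 of 850 alternatives moved by more than the spread between arrays. Dim genes such as Glycam1 and Fosl1 are limited by their signal over background.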
